A study of Mus musculus with 12 samples.

Results

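The MHC class II presentation genes are 9 genes that build the class II antigen presentation route in antigen-presenting cells. They were chosen by symbol as H2-Aa, H2-Ab1, H2-Eb1, Cd74, H2-DMa, H2-DMb1, H2-Oa, H2-Ob and Ciita, and each matched 1 row among the 35275 genes of the deposited lung table. All 9 held enough reads to be among the 16042 genes tested. Lungs from wild-type C57Bl/6J males aged 3, 6, 12 or 24 months were profiled by poly(A) RNA-seq, 3 mice per age giving 1 library each. The labels give no transgene and no treatment other than age, so the groups differ by age. Lungs were minced whole, and in such bulk RNA fewer cells of a type and less RNA per cell cannot be told apart.

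Class II molecules display peptides from the endosome to CD4 T cells. In the lung, dendritic cells, B cells, macrophages and alveolar type 2 cells are known to carry them. H2-Aa and H2-Ab1 encode the alpha and beta chains of the I-A molecule. H2-Eb1 encodes the beta chain of I-E, a molecule that C57BL/6 mice do not assemble because their alpha chain gene is defective. Cd74, the invariant chain, guides new class II molecules to the endosome and blocks the groove on the way. H2-DMa and H2-DMb1 form the DM dimer, which exchanges the invariant chain remnant for peptide. H2-Oa and H2-Ob form DO, which inhibits DM and is best known from B cells. Ciita is the coactivator without which most class II transcription stops. It does not bind DNA itself, and is recruited by RFX, CREB and NF-Y factors bound to an X box and a Y box in the promoters of these genes.

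The promoters are shown because these genes share their known regulators. RefSeq promoter windows (GRCm38.p6, the assembly also called mm10) matched 6 members with 7 windows. The letters searched on both strands were GATTGG for the Y box and, for the X box, AG, any 2 bases, AC, any base and GATG. The motifs do not overlap each other, and matches on the gene strand are in capitals. Each sequence is 80 bases on the gene's own strand, 5′ to 3′, ending 10 bases after the Y box. The windows are H2-Oa at chr17:34092271-34092350, H2-DMb1 at chr17:34153065-34153144, H2-Ob at chr17:34238783-34238862, H2-Aa at chr17:34287857-34287936 and H2-Eb1 at chr17:34305743-34305822.
H2-Oa: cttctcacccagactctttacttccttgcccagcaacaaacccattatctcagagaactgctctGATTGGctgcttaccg
H2-DMb1: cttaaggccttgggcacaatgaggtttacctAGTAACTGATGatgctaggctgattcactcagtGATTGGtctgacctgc
H2-Ob: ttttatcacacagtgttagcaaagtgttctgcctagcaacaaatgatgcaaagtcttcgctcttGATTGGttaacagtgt
H2-Aa: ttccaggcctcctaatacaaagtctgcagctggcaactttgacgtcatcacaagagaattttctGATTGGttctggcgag
H2-Eb1: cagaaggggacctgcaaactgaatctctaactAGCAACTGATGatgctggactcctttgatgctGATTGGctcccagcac

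The printed stretches were placed by their Y box, so its presence in them is not a result. Of the 7 windows 6 held the letters on the gene strand, and in the 5 printed promoters they began 44 to 62 bases before the RefSeq start. Of 32851 mouse promoter windows, 16.1% held GATTGG on either strand and 8.71% on the gene strand. H2-DMb1 and H2-Eb1 also held the X box letters, separated from the Y box by 22 and 21 bases, and H2-Oa held them 86 bases away and outside the printed stretch. The X box letters occurred in 0.968% of all windows. The sixth was 1 of the 2 windows of H2-DMa, with the letters 199 bases before the RefSeq start. Both windows of H2-DMa (chr17:34122582-34122881 and chr17:34125268-34125567) lie upstream of the gene as deposited and do not cover its start. A match describes letters and is not a measured binding site. A missing match does not show that a box is absent, since boxes with other letters were not searched.

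In mm10, 7 of the 9 genes lie in the class II region of chromosome 17. H2-Oa lies at chr17:34092340-34095234, H2-DMa at chr17:34135182-34139101, H2-DMb1 at chr17:34153072-34160230 and H2-Ob at chr17:34238903-34245907, all on the plus strand. H2-Ab1 lies at chr17:34263209-34269418 on the plus strand, H2-Aa at chr17:34282744-34287827 on the minus strand and H2-Eb1 at chr17:34305877-34316199 on the plus strand. Ciita lies at chr16:10488178-10527564 and Cd74 at chr18:60803848-60812646, both on the plus strand. H2-Oa overlaps BC051537 and Ciita overlaps Dexi, each on the opposite strand, and without a stated library strand their reads cannot be told apart.

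The libraries of 24 months differed in composition from all younger ones. They held 14720869 to 17950382 gene reads, against 15336539 to 21244361 in the younger libraries. The GC content of their genes, weighted by reads, was 54.3 to 55.9%, against 50.5 to 51.8% in the younger libraries, and the mitochondrial share of reads was 0.443 to 0.629%, against 1.65 to 3.12%. TMM scaling factors, which adjust library sizes for composition, were 0.521 to 0.826 at 24 months, against 1.06 to 1.203 at the younger ages. Values are therefore given in 2 forms, as CPM (reads scaled to the TMM-adjusted library size) and as corrected CPM, in which each library's smooth dependence on gene GC content and length has been removed. This correction also removes any effect of age that follows GC content or length. Log2 fold changes are given ± SE with edgeR p values adjusted by Benjamini-Hochberg over all genes tested, and a gene was called at an adjusted p under 0.05.

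At 24 against 3 months, 8 of the 9 class II genes rose, by 2.12-fold for H2-Aa to 9.23-fold for H2-DMa, and H2-Ob was not called. With the correction all 9 rose, and the folds lay closer to each other, at 2.06-fold for Ciita to 3.25-fold for H2-Aa, smaller than without it for all but H2-Aa and H2-Ob. Among all genes, 38.2% were called higher and 44.6% lower in this comparison, and 30.1% and 26.4% with the correction, so a call alone did not set a gene apart. The median log2 fold change was 2.63 for the members, against -0.29 for all genes, and with the correction 1.28, against 0.01. With library totals in place of TMM the median of all genes moved to -1.001 and that of the members to 1.76, and 7 members were called higher, beside 26.4% of all genes, while 53.3% were lower. No member was called lower under any of the 3 scalings, and none was lower at an unadjusted p under 0.05 in edgeR with TMM, with the correction or in DESeq2. By library totals, for which unadjusted p are not given, H2-Ob had a negative change that narrowly missed the call. The members' reads made up 0.557, 0.647 and 0.940% of all gene reads in the 24-month libraries, against 0.284, 0.221 and 0.202% in the 3-month libraries.

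**Figure D1:**
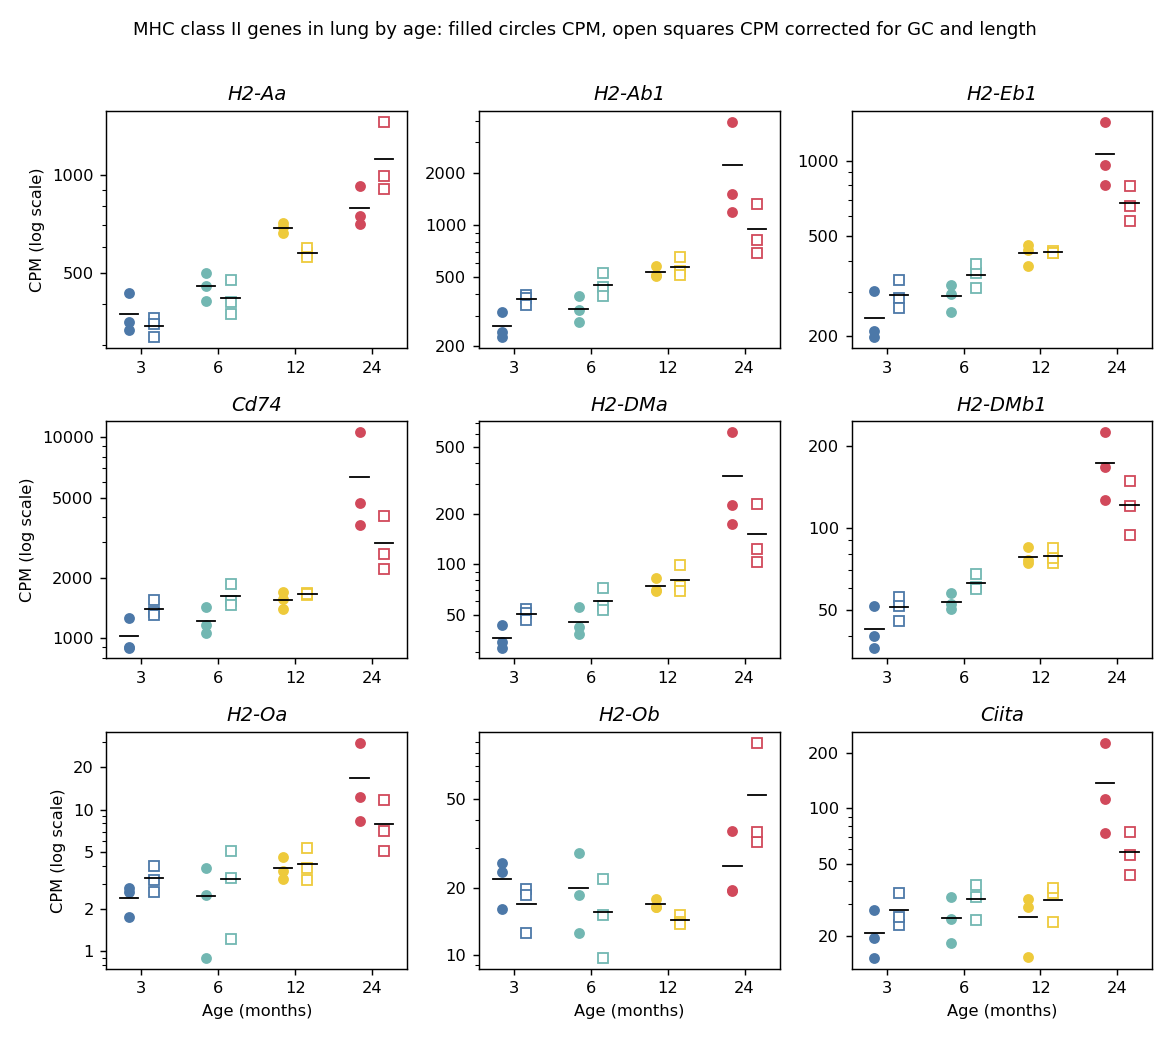
Level of each class II gene in each mouse at 3, 6, 12 and 24 months, on a log axis. Filled circles are CPM, open squares are CPM corrected for GC content and gene length, and black lines are means of 3 mice. At 24 months the corrected values of every gene lie above those at 3 months, beside 31.9% of all genes, whereas the uncorrected values of H2-Ob overlap and those of the other 8 do not, beside 38.6% of all genes.

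All 3 class II chain genes rose, H2-Ab1 by the most without the correction and H2-Aa with it. It measured 316, 242 and 225 CPM in the mice at 3 months, 323, 389 and 274 at 6 months, 510.4, 518 and 579 at 12 months, and 1191, 1514 and 3953 at 24 months. All 24-month mice lay above all younger mice, and mouse 3 of that age lay far above the other two. The log2 fold change of H2-Ab1 at 24 against 3 months was 3.09 ± 0.37 (adjusted p = 1.79e-06), and 1.34 ± 0.20 after correction (adjusted p = 7.77e-05). H2-Aa, its partner chain, measured 434, 353 and 333 CPM at 3 months, 455, 501 and 409.9 at 6 months, 664, 709 and 691 at 12 months, and 709, 747 and 923 at 24 months. Its 12-month and 24-month levels overlapped narrowly at 709 CPM, and both lay above all 3-month and 6-month mice. The log2 fold change of H2-Aa at 24 against 3 months was 1.09 ± 0.19 (adjusted p = 8.61e-05), and 1.70 ± 0.16 after correction (adjusted p = 1.38e-06). With library totals the change of H2-Aa was 0.32 and was not called (adjusted p = 0.104). H2-Eb1 measured 303, 209 and 198 CPM at 3 months, 295, 319 and 248 at 6 months, 443, 459 and 381 at 12 months, and 805, 963 and 1435 at 24 months. Its 24-month mice lay above all younger mice, with a log2 fold change of 2.18 ± 0.25 against 3 months (adjusted p = 1.36e-06), and 1.21 ± 0.14 after correction (adjusted p = 7.91e-06).

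Cd74 rose as well and was the most abundant member. It measured 1263, 905 and 898 CPM at 3 months, 1161, 1433 and 1059.9 at 6 months, 1572, 1696 and 1401 at 12 months, and 3644, 4679.9 and 10592 at 24 months. The 24-month mice lay above all others, and the 3 younger ages differed by far less than that step. The log2 fold change of Cd74 at 24 against 3 months was 2.63 ± 0.33 (adjusted p = 3.07e-06), and 1.08 ± 0.18 after correction (adjusted p = 0.0002).

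Of the peptide editors, both DM chains rose. H2-DMa measured 43.5, 34.1 and 31.8 CPM at 3 months, 42.3, 55.5 and 38.2 at 6 months, 70.0, 69.0 and 82.1 at 12 months, and 173, 225 and 613 at 24 months. H2-DMb1 measured 51.6, 40.2 and 36.3 CPM at 3 months, 52.6, 57.8 and 50.3 at 6 months, 76.3, 84.9 and 74.5 at 12 months, and 127, 167 and 225 at 24 months. In both genes the 12-month mice lay above all 3-month mice, and the 24-month mice above all others. At 24 against 3 months the log2 fold change of H2-DMa was 3.21 ± 0.38 (adjusted p = 1.79e-06), and 1.59 ± 0.25 after correction (adjusted p = 9.3e-05). That of H2-DMb1 was 2.02 ± 0.23 (adjusted p = 9.74e-07), and 1.24 ± 0.15 after correction (adjusted p = 1.1e-05). H2-DMb1 has a near copy beside it, H2-DMb2, and any sharing of reads between both copies was not tested.

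The chains of DO, the DM inhibitor, were little expressed, and of them H2-Oa rose, while H2-Ob passed the test with the correction alone. H2-Oa measured 2.65, 1.76 and 2.79 CPM at 3 months, 3.91, 2.52 and 0.898 at 6 months, 3.72, 3.26 and 4.67 at 12 months, and 8.31, 12.3 and 29.7 at 24 months. Its 24-month mice lay above all others, although the libraries held only 20 to 86 reads of it at the younger ages and 101, 169 and 254 reads at 24 months. The log2 fold change of H2-Oa at 24 against 3 months was 2.79 ± 0.48 (adjusted p = 6.53e-05), and after correction 1.28 ± 0.39 (adjusted p = 0.0124). The corrected call was lost without mouse 2 of 3 months or mouse 3 of 24 months, where the adjusted p reached 0.067. H2-Ob measured 25.9, 23.5 and 16.1 CPM at 3 months, 28.6, 18.5 and 12.5 at 6 months, 17.8, 16.4 and 16.5 at 12 months, and 19.4, 19.6 and 36.1 at 24 months. The ages overlapped, and the log2 fold change of H2-Ob at 24 against 3 months was 0.19 ± 0.30 (adjusted p = 0.563). Its direction depended on the scaling, with -0.62 by library totals (adjusted p = 0.0588) and 1.58 ± 0.36 after correction (adjusted p = 0.00232). It also depended on single mice, the uncorrected change lying between -0.23 and 0.34 with 1 mouse left out, and at -0.16 without mouse 3 of 24 months. Corrected CPM of H2-Ob were 32.0, 35.4 and 89.2 at 24 months, against 19.8, 18.5 and 12.5 at 3 months.

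Ciita, the coactivator of the route, rose at 24 months. It measured 15.3, 27.9 and 19.6 CPM at 3 months, 24.8, 32.8 and 18.5 at 6 months, 29.1, 32.0 and 15.5 at 12 months, and 73.6, 113 and 228 at 24 months. The 3 younger ages overlapped throughout, and the 24-month mice lay above all of them. The log2 fold change of Ciita at 24 against 3 months was 2.72 ± 0.40 (adjusted p = 1.21e-05), and 1.05 ± 0.23 after correction (adjusted p = 0.00132).

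Mouse 3 of 24 months was the highest of all 12 mice for every member in CPM. This ranking depended on the scaling, since its TMM factor was the lowest, at 0.521. In FPKM, reads scaled by gene length and library size, its H2-Aa was 425, against 517 and 506 in the other 24-month mice. That was also below the 638 to 666 of the 12-month mice. Its H2-Ob was 7.03 FPKM, below 11.2 and 10.6 in mice 1 and 2 of 3 months. Without mouse 3 of 24 months the 8 calls at 24 against 3 months held, with log2 fold changes of 0.97 for H2-Aa, 2.38 for H2-Ab1, 1.91 for H2-Eb1, 2.03 for Cd74, 2.45 for H2-DMa, 1.79 for H2-DMb1, 2.11 for H2-Oa and 2.16 for Ciita. The corrected changes without it lay between 0.79 for Cd74 and 1.43 for H2-Aa, and that of H2-Ob was 0.998 (adjusted p = 0.00726).

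The size of the uncorrected change followed the GC content of the gene. H2-Ob and H2-Aa had transcripts of 47.5 and 48.9% GC and the smallest changes, while the other 7 members had 53.2 to 57.7% GC and log2 changes of 2.02 to 3.21. Across the 9 genes, which are not independent replicates and share the same libraries, Pearson's r between GC content and the log2 fold change at 24 against 3 months was 0.976, and -0.62 with the correction. The smooth that the correction removed between these ages amounted to -1.32 on the log2 scale for H2-Ob, -0.59 for H2-Aa and 0.77 to 1.61 for the other members. The part of GC content in the age difference itself was not tested, since age and GC shift move together in these libraries.

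**Figure D2:**
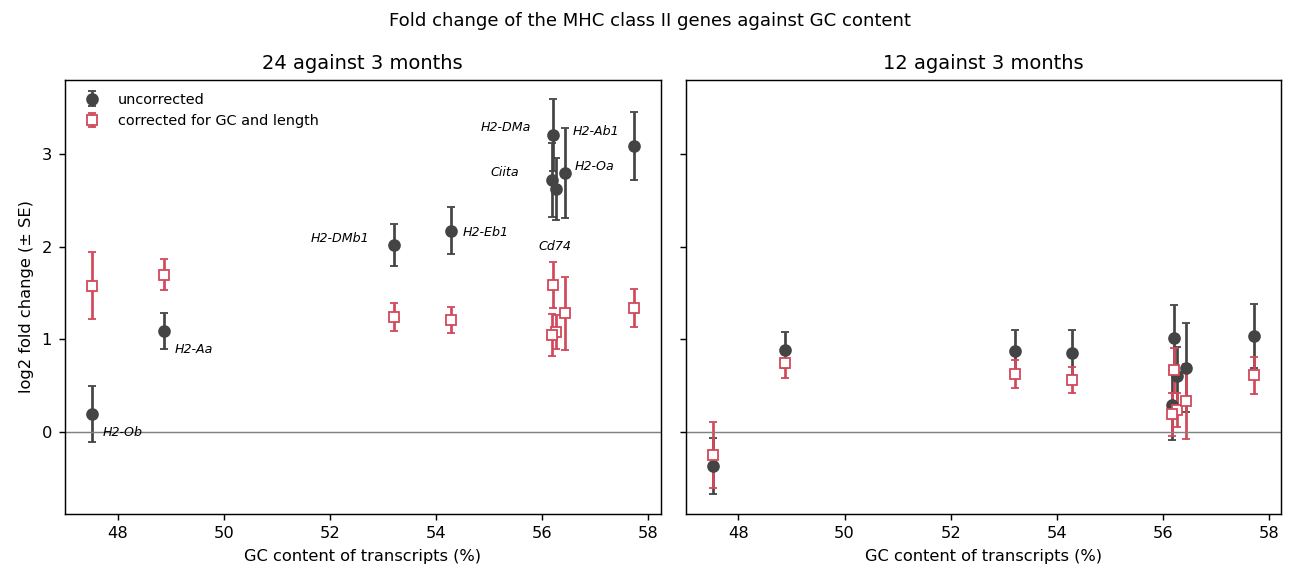
Log2 fold change (± SE) of the 9 class II genes against the GC content of their transcripts, at 24 against 3 months (left) and 12 against 3 months (right). Filled circles are uncorrected and open squares corrected for GC content and gene length. At 24 months the uncorrected changes climb with GC content, from 0.19 for H2-Ob (-0.62 with library totals) to 3.21 for H2-DMa, and the corrected ones lie between 1.05 and 1.70.

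At 12 against 3 months, 3 of the 9 genes rose, beside 6.3% of all genes. They were the class II chains H2-Aa (0.88 ± 0.19, adjusted p = 0.0113) and H2-Eb1 (0.86 ± 0.24, adjusted p = 0.032) and the DM chain H2-DMb1 (0.88 ± 0.22, adjusted p = 0.0197). H2-Ab1 and H2-DMa had changes at least as large, 1.04 ± 0.35 and 1.02 ± 0.36, without passing (adjusted p = 0.0538 and 0.0647). With the correction H2-Aa, H2-Eb1, H2-DMb1 and H2-Ab1 rose, by 0.56 to 0.75, beside 10.5% of all genes. Cd74 had 0.61 ± 0.32, H2-Oa 0.69 ± 0.48, Ciita 0.29 ± 0.38 and H2-Ob -0.37 ± 0.30, and none of these passed (adjusted p = 0.179 to 0.593). The CPM of 7 genes did not overlap between 12 and 3 months, beside 24% of all genes higher without overlap, and of 6 genes with the correction, beside 25.7%.

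The calls at 12 months depended on which libraries shared the fit. With the 24-month libraries left out, 6 genes rose at 12 against 3 months, H2-Ab1 (1.05 ± 0.18, adjusted p = 0.00171), H2-DMa (1.02 ± 0.18, adjusted p = 0.00201) and Cd74 (0.62 ± 0.18, adjusted p = 0.0182) being added, beside 19% of all genes. With the correction as well, 5 rose, beside 17.6% of all genes. Without mouse 2 or mouse 3 of 3 months the 3 calls were lost, the adjusted p of H2-Aa being 0.0728 or 0.0747, while 0.443 or 0.809% of all genes were called higher. Without mouse 2 of 12 months H2-Aa alone of the members passed (0.86, adjusted p = 0.0454), beside 1.5% of all genes. Without mouse 1 of 24 months 5 members passed, beside 8.8% of all genes, and without mouse 3 of that age 6 passed, beside 18.9%. With the correction H2-Aa passed whichever mouse was left out, with changes of 0.69 to 0.80 and an adjusted p of at most 0.0398.

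At 6 against 3 months edgeR called no member and no gene (0%). No member had an unadjusted p under 0.05, the smallest being 0.155, beside 192 genes higher and 75 lower that did. DESeq2 called no member and 6 genes (0.0249%). The log2 changes of the members lay between -0.14 and 0.33 with a median of 0.28, against -0.01 for all genes. At 12 against 6 months edgeR called no member, beside 0.48% of all genes higher, although H2-Aa (0.60 ± 0.19), H2-DMb1 (0.55 ± 0.22) and H2-Eb1 (0.57 ± 0.24) had unadjusted p under 0.05, and DESeq2 called H2-Aa (adjusted p = 0.0231), beside 4.3% of all genes higher. With the 24-month libraries left out 5 were called, H2-Aa, H2-Ab1, H2-Eb1, H2-DMa and H2-DMb1, by 0.56 to 0.71, beside 10.9% of all genes. With the correction as well, H2-Aa (0.46) and H2-DMb1 (0.33) were called, beside 9.38%.

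At 24 against 12 months, 7 genes rose, beside 37.3% of all genes, and with the correction 8 rose, beside 21.3%. The uncorrected changes of the 7 lay between 1.14 for H2-DMb1 and 2.43 for Ciita. H2-Aa had 0.20 ± 0.19 (adjusted p = 0.335), and was called in opposite directions with library totals (-0.43, adjusted p = 0.0374, beside 50% of all genes lower and 24.1% higher) and with the correction (0.95 ± 0.16, adjusted p = 0.000297). H2-Oa was not called with the correction (0.95 ± 0.38, adjusted p = 0.0571). Cd74 and Ciita, which were not called at 12 against 3 months, had corrected changes of 0.84 ± 0.18 and 0.86 ± 0.23 at 24 against 12 months (adjusted p = 0.00203 and 0.0071). At 24 against 6 months 8 genes rose, beside 37.9% of all genes, and 9 with the correction, beside 28.6%. These comparisons share libraries and are not independent of each other.

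Levels can be ordered across genes in FPKM, the deposited reads scaled by gene length and library size. At 3 months the order was Cd74 (847 ± 165 FPKM, SD, n = 3), H2-Aa (386 ± 53.6), H2-Ab1 (252 ± 45.4), H2-Eb1 (233 ± 55.0), H2-DMb1 (35.6 ± 6.46), H2-DMa (27.4 ± 4.51), H2-Ob (9.57 ± 2.31), Ciita (4.67 ± 1.55) and H2-Oa (2.27 ± 0.482). The ranges of H2-Ab1 and H2-Eb1 overlapped, as did those of H2-DMb1 and H2-DMa, and the other neighbours were separate. The order was the same at 6 months, where H2-Ob and Ciita overlapped too, and at 12 months, where Ciita and H2-Oa overlapped. At 24 months the order was Cd74 (2863 ± 932 FPKM), H2-Ab1 (1157 ± 477), H2-Eb1 (605 ± 38.3), H2-Aa (482 ± 50.3), H2-DMa (136 ± 60.9), H2-DMb1 (83.1 ± 8.33), Ciita (16.9 ± 5.56), H2-Oa (8.60 ± 3.603) and H2-Ob (6.22 ± 0.727). Here Ciita overlapped H2-Oa, and H2-Oa overlapped H2-Ob. H2-Aa thus stood above H2-Ab1 in every mouse at 3, 6 and 12 months and below it in every mouse at 24 months.

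The ratio between partner chains shows that shift mouse by mouse. H2-Aa over H2-Ab1 in FPKM was 1.54 ± 0.06 at 3 months, 1.495 ± 0.11 at 6 months, 1.38 ± 0.09 at 12 months and 0.47 ± 0.20 at 24 months (SD, n = 3 each). Corrected for GC content and length, the ratio ran the other way, at 1.29 ± 0.11 at 24 months, against 0.983 ± 0.006 at 3 months. H2-DMa over H2-DMb1 was 1.64 ± 0.71 at 24 months, against 0.772 ± 0.015 at 3 months, and 1.10 ± 0.25 against 0.894 ± 0.029 with the correction. H2-Oa over H2-Ob was 1.36 ± 0.43 at 24 months, against 0.253 ± 0.110 at 3 months, and 0.356 ± 0.076 against 0.453 ± 0.216 with the correction, where the ages overlapped. Cd74 over H2-Ab1 was 2.53 ± 0.20 at 24 months, against 3.36 ± 0.12 at 3 months, and 2.71 ± 0.07 against 3.22 ± 0.14 with the correction, lower in both scales. All of these ratios but the corrected H2-Oa over H2-Ob were without overlap between the ages, with a two-sided exact permutation p of 0.1, the smallest that 3 mice against 3 allow, so that no ratio could pass 0.05. For corrected H2-DMa over H2-DMb1 the gap was narrow, at 0.929 in mouse 2 of 24 months, against 0.927 in mouse 3 of 3 months. Mouse 3 of 24 months had 1.39.

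**Figure D3:**
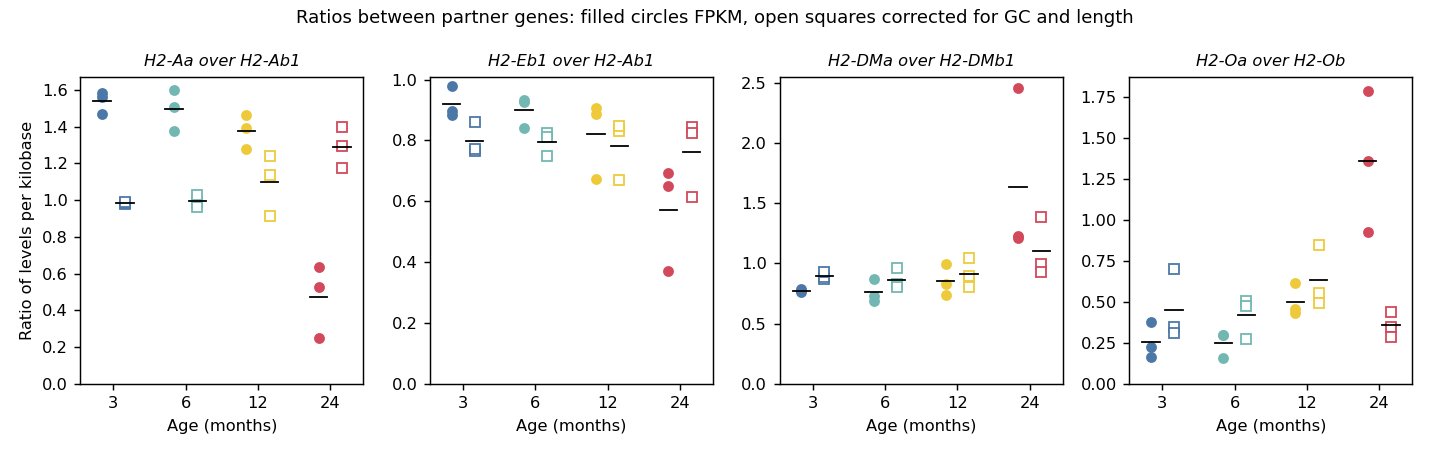
Ratios of levels per kilobase between partner genes in each mouse at 3, 6, 12 and 24 months, with means as black lines. Filled circles are FPKM and open squares are corrected for GC content and length. H2-Aa over H2-Ab1 falls to 0.47 at 24 months in FPKM and stands at 1.29 with the correction. H2-Eb1 over H2-Ab1 has a mean of 0.57 at 24 months in FPKM, against 0.92 at 3 months. With the correction it stays between 0.61 and 0.86 in every mouse.

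The likeness between members within the younger libraries ranged widely. Over the 9 libraries of the younger ages, Pearson's r of log2(CPM + 1) ranged over the 36 pairs of members between -0.21 for H2-DMb1 with H2-Ob and 0.996 for H2-Ab1 with H2-DMa, with a median of 0.60. With the correction the range was -0.11 to 0.989, between the same pairs of genes, and the median 0.42. These libraries share depth, composition and the age groups, so the values only describe them. The genes outside the 9 whose levels were most like the members' mean over the 12 libraries were Slc25a1, Efs, Ltb, Kptn and Shisa4, with r of 0.994, 0.994, 0.993, 0.992 and 0.991. Over the 9 younger libraries their r was 0.969, 0.979, 0.911, 0.922 and 0.939. Of 14553 genes with a mean CPM of at least 1, 24.1% had an r over 0.9 over the 12 libraries, which fall into 2 clusters, so high likeness was common.

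Around the 9 genes, 30 further genes of the route were listed and 28 were tested. At 24 against 3 months 8 rose and 13 fell, with a median of -0.30, against -0.29 for all genes, and with the correction 10 rose and 5 fell, with a median of 0.21, against 0.01. With library totals 5 rose and 18 fell, with a median of -1.02, against -1.001. Among all genes, 38.2% were called higher and 44.6% lower. The shares were 30.1% and 26.4% with the correction, and 26.4% and 53.3% with library totals. H2-DMb2, Ctsd, Ifi30 and Lag3 rose, and Nfya, Jak1 and Jak2 fell, under all 3 scalings.

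Among other class II genes, H2-DMb2, the second DM beta gene, measured 109 ± 74.7 CPM at 24 months, against 15.5 ± 4.84 CPM at 3 months (2.82 ± 0.40, adjusted p = 1.01e-05), and its change was 2.08 ± 0.40 with the correction. H2-Eb2, a little expressed I-E beta gene, fell by 2.10 on the log2 scale (adjusted p = 0.000868), with 22 reads in all at 24 months, against 185 at 3 months, and was not called with the correction (-0.05 ± 0.51). H2-Ea-ps, the defective I-E alpha gene, had 2 reads over the 12 libraries.

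Of the promoter factors, Rfxank, a subunit of RFX, rose (1.91 ± 0.24, adjusted p = 3.35e-06), but had 0.39 ± 0.16 after correction (adjusted p = 0.0531). Its partners in RFX were not called with TMM, with -0.37 ± 0.28 for Rfx5 (adjusted p = 0.224) and -0.01 ± 0.24 for Rfxap (adjusted p = 0.963). By library totals, where the median of all genes was -1.001, both were called lower, with -1.11 for Rfx5 (adjusted p = 0.00503) and -0.75 for Rfxap. With the correction Rfxap fell (-1.09 ± 0.16) and Rfx5 had -0.03 ± 0.20. Of the NF-Y subunits, which bind the Y box, Nfya fell (-0.52 ± 0.23, adjusted p = 0.043), Nfyb fell without the correction (-2.11 ± 0.20), and Nfyc was not called (0.41 ± 0.23, -0.14 with the correction, -0.30 by library totals). Creb1, which binds the X box region, fell without the correction (-2.78 ± 0.31) and had 0.15 ± 0.14 with it.

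The endosomal enzymes prepare antigen and invariant chain. Ctsd, an aspartic protease, measured 4292 ± 1992 CPM at 24 months, against 701 ± 88.6 CPM at 3 months (2.61 ± 0.28, adjusted p = 6.33e-07), and its corrected change was 1.13 ± 0.18. Ifi30, the lysosomal thiol reductase, rose by 1.47 ± 0.21 and with the correction by 0.76 ± 0.13. Ctss, the protease that trims the invariant chain in most antigen-presenting cells, was called lower without the correction (-0.90 ± 0.21) and higher with it (0.43 ± 0.14). Ctsl, which does this work in thymic epithelium, likewise had -0.89 ± 0.19 and 0.65 ± 0.15. Ctsb rose by 0.57 ± 0.22 (0.83 ± 0.14 with the correction, -0.10 by library totals), and Lgmn had 0.03 ± 0.19 (-0.67 by library totals, adjusted p = 0.0196).

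Interferon gamma is the classic inducer of Ciita. Ifng itself was too low to test, with 1 read at 24 months, against 12 reads at 3 months. Jak1 and Jak2, the kinases of its receptor, fell by 3.14 and 3.42 on the log2 scale, and by 2.27 and 0.67 with the correction. Ifngr1, a chain of that receptor, fell without the correction (-1.08 ± 0.17) and had 0.03 ± 0.13 with it. Irf1 was called higher without the correction (0.60 ± 0.19), had -0.14 by library totals, and was called lower with the correction (-0.50 ± 0.11).

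Of the ubiquitin ligases that turn class II molecules over, March1 fell without the correction (-2.52 ± 0.41), while March8 was called higher with it (0.90 ± 0.16) and lower by library totals (-0.83). Both appear under date-like names in the deposited table and were matched by gene ID. Of the costimulators, Cd40 rose (1.23 ± 0.21, and 0.91 ± 0.15 with the correction), though not by library totals (0.50, adjusted p = 0.0822). Cd86 had -1.34 ± 0.30 and, with the correction, 0.74 ± 0.24, called in opposite directions. Lag3, an inhibitory receptor for class II on T cells, measured 49.8 ± 56.2 CPM at 24 months, against 2.03 ± 0.473 CPM at 3 months (log2 change 4.60 ± 0.62, adjusted p = 5.16e-06), and rose with the correction by 2.27 ± 0.41. Cd4, the class II coreceptor of helper T cells, had 0.47 ± 0.26 (adjusted p = 0.105), and -0.26 by library totals.

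**Figure D4:**
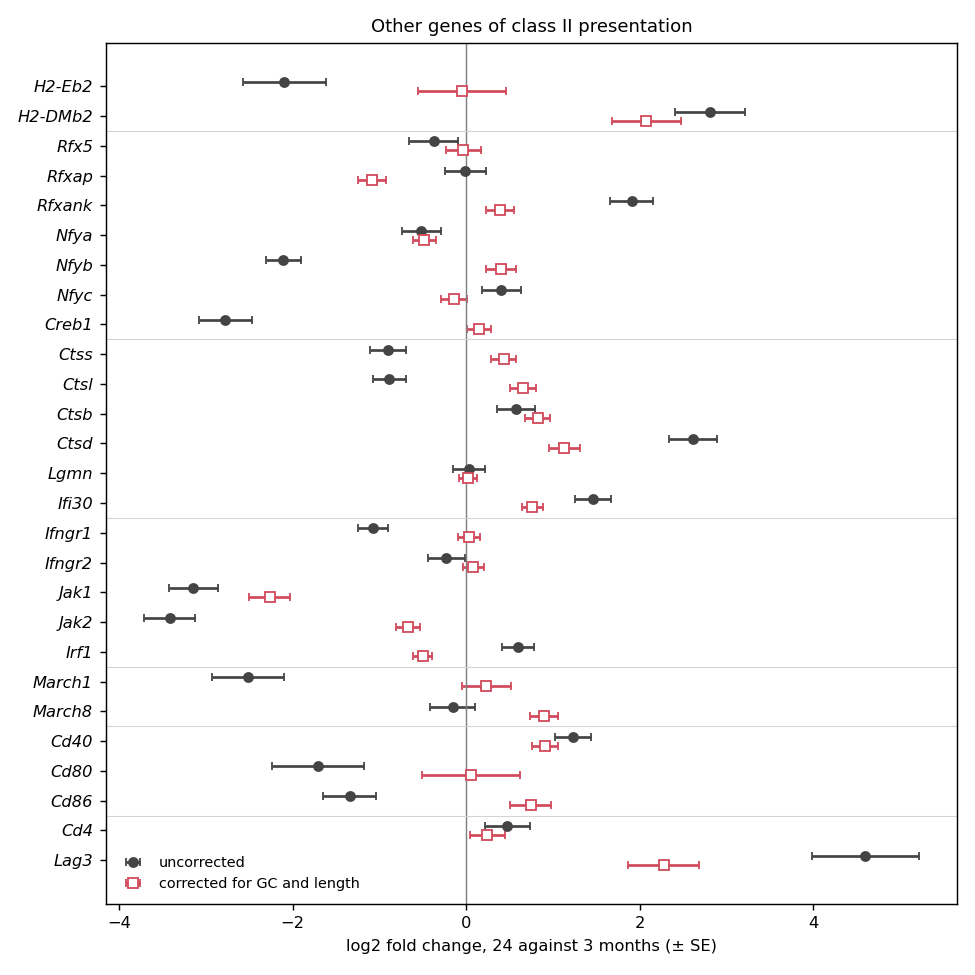
Log2 fold change (± SE) at 24 against 3 months of tested genes of class II presentation outside the 9, with 1 of the 28 not drawn, grouped by role between grey lines. Filled circles are uncorrected and open squares corrected for GC content and gene length. Lag3, H2-DMb2, Ctsd and Ifi30 lie above 0 and Jak1, Jak2 and Nfya below 0 in both forms, while Creb1, Nfyb and March1 lie below 0 only without the correction.

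The class II region also holds genes of the class I route. Between H2-Oa and H2-Ea-ps (chr17:34092340-34344643) the table listed 20 genes, of which 9 outside the members were tested. At 24 against 3 months 6 of these rose and 2 fell, and with the correction 4 rose and 2 fell among 8. Among all genes, 38.2% were called higher and 44.6% lower, and 30.1% and 26.4% with the correction. The 4 that rose with the correction were H2-DMb2, the peptide transporter gene Tap1 (1.39) and the immunoproteasome genes Psmb8 (1.13) and Psmb9 (0.73). Brd2, a bromodomain gene beside H2-DMa, was called higher without the correction (1.15 ± 0.22) and lower with it (-0.47), so its direction depended on the scaling. Since 2 genes were called lower in each form, not every gene of the region moved with the members.

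Marker lists of the cell types known to carry class II molecules differed in direction. Among all genes, 38.2% were called higher and 44.6% lower at 24 against 3 months. The shares were 30.1% and 26.4% with the correction, and 26.4% and 53.3% with library totals. A count of calls near these shares did not set a list apart. Summed over a marker list, B cell markers had 366 to 994 CPM at 24 months, against 103 to 188 CPM at 3 months, and 232 to 518 against 121 to 209 with the correction. Of the 10 B cell genes 7 rose and 1 fell, with the correction 4 rose, Spib, Blk, Ms4a1 and Cd79a, and with library totals 5 rose and 3 fell. Ms4a1 was called lower by library totals (-1.69). Dendritic cell markers summed to 451 to 808 CPM at 24 months, against 239 to 255 CPM at 3 months, with 6 of 12 higher and 3 lower, 6 higher and 1 lower with the correction, 5 higher and 1 lower in both, and 5 higher and 5 lower with library totals. These sums weigh the most abundant markers most. The median log2 change of the 12 was 0.39, 0.63 with the correction and -0.34 with library totals. For all genes it was -0.29, 0.01 and -1.001. Monocyte and interstitial macrophage markers summed to 1114 to 1529 CPM at 24 months, against 274 to 296 CPM at 3 months. Of these 8 genes 7 were called higher without the correction and 7 with it, but 6 of them in both, and Ccr2 was called lower without the correction (-1.25) and higher with it (1.55). With library totals 5 rose, among them the complement gene C1qa and the growth factor receptor gene Csf1r, which also rose in both other forms. Alveolar macrophage markers summed to 200.3 to 239 CPM at 24 months, against 665 to 818 CPM at 3 months, and 301 to 493 against 532 to 634 with the correction. Chil3 made up much of these sums, with a mean of 109 CPM at 24 months, against 553 CPM at 3 months. Of the 8 genes 1 rose and 5 fell, 1 and 4 with the correction, and 0 and 6 with library totals. The 1 higher gene was Marco without the correction and Plet1 with it, and Plet1 was lower without it, while Chil3, Mrc1 and Siglec5 fell in all 3 forms. Of the 9 alveolar type 2 markers 5 rose and 2 fell without the correction, 5 and 2 with it, and 3 and 4 with library totals. The genes were not the same, since 3 (Abca3, Etv5 and Napsa) rose and 1 (Lamp3) fell both with and without the correction, whereas Sftpb and Sftpa1 were called in opposite directions. Sftpc, the surfactant protein C gene, was called higher without the correction (0.57) and had -0.24 with it and -0.18 by library totals. The sums of this list were 39207 to 46379 CPM at 24 months, against 26040.2 to 30843 CPM at 3 months, and with the correction 30011 to 32976, against 31682 to 36210.

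Of the lists of cells not named as carriers, T cell markers summed to 122 to 230.1 CPM at 24 months, against 33.1 to 42.1 CPM at 3 months, with 4 of 7 higher, 6 with the correction and 3 with library totals. Of the 6 endothelial markers 3 rose and 3 fell, likewise with library totals, and with the correction 1 rose and 2 fell. The shares of all genes called are those given for the carrier lists. Ptprc, carried by all leukocytes, was called lower uncorrected and higher corrected, with 7.73 to 27.3 CPM at 24 months, against 91.2 to 104 CPM at 3 months, and 50.03 to 88.6 against 44.7 to 52.3 with the correction. At 12 against 3 months no B cell, dendritic cell, T cell or endothelial marker was called in the uncorrected fit. Of the 8 monocyte and interstitial macrophage markers 2 were called higher, among them C1qa (0.73, adjusted p = 0.0377). Of the 9 type 2 markers 1 was called higher, Sftpc (0.62, adjusted p = 0.032). Of the 8 alveolar macrophage markers 1 was called lower, Siglec5 (-0.94, adjusted p = 0.0258). Among all 16042 genes, 6.3% were called higher and 1423 genes lower. The monocyte list summed to 358 to 419.8 CPM at 12 months, against 274 to 296 CPM at 3 months. No marker was at 0 reads in any library, and the part of these cell types in the rise of the class II genes was not tested.

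The authors' deposited table gave nearly the same changes at 24 against 3 months, with log2 values of 3.08 for H2-Ab1, 1.17 for H2-Aa and 0.30 for H2-Ob, and 8 members higher at its own adjusted p under 0.05, beside 33.2% of the genes it gives an adjusted p. At 12 against 3 months the authors' deposited table called 6 members higher, H2-Aa, H2-Ab1, H2-Eb1, Cd74, H2-DMa and H2-DMb1, beside 13.7% of its genes, and at 6 against 3 months none, beside 0.101%.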

How the data were processed

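Per the labels' protocols, minced lungs were kept in RNAlater, RNA was extracted with a column kit, and poly(A) libraries were made with a NEBNext Ultra kit. The submitters' processing notes name mm10, TopHat, STAR 2.5 and HTSeq 0.6.1 without roles. The authors deposited whole-number read counts per gene and library, FPKM, log2 fold changes and adjusted p-values against 3 months, for which no tool is named. FPKM recomputed from counts and deposited lengths matched 235411 of 235411 values within 1e-06. Pooled columns of the table, 10 in number, were not used.

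Genes were filtered with filterByExpr, libraries scaled with TMM, and 6 pairs of ages tested with the edgeR quasi-likelihood F test (edgeR 4.0.16, limma 3.58.1, R 4.3.3) on all 12 libraries, with Benjamini-Hochberg adjustment over 16042 genes. SE is the absolute log2 fold change divided by the root of F. The correction fitted, per library, a smooth of each gene's deviation from its mean log2 CPM (prior count 2) on GC content and log2 length (mgcv 1.9.3) and used it as an offset; GC content was read off GENCODE M21 transcripts, for 15949 genes (99.4%). Scripts were tested on simulated data. Alternatives were DESeq2 1.42.0, RLE factors, a filter at mean CPM 1 or none, a block for mouse number, only the pair of ages, 24-month libraries left out, and each mouse left out; library totals, and the correction joined with leaving libraries out, were added after the data were seen.

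Members, lists and tests were chosen with earlier results of these data known. All members and all listed pathway genes could be named, up to 4 markers a list by smallest p, and the 5 genes most like the members, with 1 pathway gene and 1 marker counted but not reported here. Further markers, where calls differed between scalings, were named after their values were seen. The labels number the mice of each age 1 to 3 without saying that a number pairs ages. The series design says that 3 mice were analysed independently at each age, and p-values measure the spread between these samples. Residuals of same-number mice correlated above 0.1 in all 3 pairs only between 6 and 3 months (r = 0.112 to 0.239), where the block also called no member and no gene. No batch, date or RNA integrity value is given, so batch and age cannot be told apart.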

Additional observations from a re-analysis of the deposited data

How the results depend on the processing

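At 24 against 3 months 8 members were called, and 7 to 9 under the alternatives; at 24 against 12 months 7, and 7 to 9; at 24 against 6 months 8, and 7 to 9; and at 6 against 3 months 0 in each. Calls at 12 against 3 months moved most. The 3 members called became 6 with only the pair of ages, 6 with the 24-month libraries left out and 5 with these left out and the correction, and 0 to 6 with single mice left out (1 to 5 with the correction). At 12 against 6 months the 0 became 1 with DESeq2, 5 with only the pair of ages, 5 with the 24-month libraries left out, 2 with these left out and the correction, and 0 to 5 with single mice left out (0 to 1 with the correction). The upper ends, 6 and 5, came without mouse 3 of 24 months. The spread shared with the 24-month libraries was larger, with an SE of 0.35 for H2-Ab1 at 12 against 3 months, against 0.18 without them.

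Genes called at 24 against 3 months numbered 13277, and 9010 with the correction, 8793 with the correction and the replicate block; at 24 against 12 months 12791, 6735 and 6449; at 24 against 6 months 13125, 8543 and 8323. At 12 against 3 months 2433 genes were called, 1587 with the replicate block, 3962 with only the pair of ages, 5748 with the 24-month libraries left out, and 302 to 5928 with single mice left out. At 12 against 6 months the 325 became 979 with the correction, 759 with the correction and the replicate block, 17 with the block alone, 187 with RLE factors, 1610 with DESeq2, 2215 with only the pair of ages, 3176 with the 24-month libraries left out, 49 with library totals and 3 to 3431 with single mice left out. At 6 against 3 months the 0 became 1 with the correction, 1 with the correction and the block, 2 with no filter, 6 with DESeq2, 1 with only the pair of ages, and 0 to 1 with single mice left out.

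One change reversed. H2-Aa at 24 against 12 months was -0.43 with library totals, against 0.20 with TMM, the scaling being the only choice that differed. The replicate block ended the call of H2-Eb1 at 12 against 3 months (0.86, adjusted p = 0.0558), and, joined with the correction, that of H2-Ab1 there (0.60, adjusted p = 0.0619); apart from 6 against 3 months, no pair of ages had every mouse closest to its own number. Of the members' other results under alternatives, 61 changed sign without a call in either form. H2-Oa, with 20 to 86 reads per library at the younger ages, is the least precise member.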
